A study of Homo sapiens with 12 samples.

Results

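Histone genes code for the proteins that package DNA. They were chosen by symbol, as the genes whose name begins with HIST1H, HIST2H, HIST3H or HIST4H together with H1F0, H1FX, H2AFX, H2AFZ, H2AFV, H2AFY, H2AFY2, H2AFJ, H3F3A and H3F3B. This gave 83 of the 26475 symbols measured, 73 of them HIST-named genes, called replication-dependent below, and 10 of them variant genes. The cells were MIAPaCa2, an established pancreatic ductal adenocarcinoma (PDAC) line, as parental cells and as oxamate-resistant cells. Oxamate is a competitive inhibitor of lactate dehydrogenase A (LDHA), and the resistant cells are polyclonal populations of the same line that grew out under continuous culture in sodium oxamate. Vehicle-treated cells, labelled as untreated, and oxamate-treated cells, labelled as treated with an LDHA inhibitor, were sequenced from both lines with 3 replicates in each of the 4 groups. All 12 libraries were made from mRNA enriched on oligo(dT) beads. The sources used here do not say whether replicates came from separate cultures, so p-values measure the spread between these samples, which may be technical.

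A nucleosome is built from the core histones H2A, H2B, H3 and H4, and the linker histone H1 binds the DNA between nucleosomes. Replication-dependent histone genes lie in clusters, lack introns in most cases and are transcribed mainly in S phase, when new chromatin is assembled. Their mRNA normally ends in a stem-loop bound by SLBP and carries no poly(A) tail. Variant, or replacement, histone genes are transcribed throughout the cell cycle, and their mRNA is polyadenylated. A few replication-dependent genes are known to make polyadenylated transcripts as well, for example in cells that differentiate or stop dividing. Oligo(dT) enrichment keeps polyadenylated RNA, so the levels below are those of the RNA that was captured. Total histone mRNA was not measured. A change in captured RNA cannot be told apart from a change in the share of transcripts with a poly(A) tail, and in bulk samples fewer cells in S phase cannot be told apart from less RNA per cell.

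The stem-loop is shown for 8 genes on which the results below turn, because it is the feature that sets the classes apart. Sequences come from the transcripts of GENCODE release 29 (GRCh38) and are written 5′ to 3′ as DNA, with the 16 bases of the stem-loop in capitals.
HIST3H2A: cataaaGGCTCTTTTCAGAGCCaccta
HIST2H2BE: tccaaaGGCTCTTTTCAGAGCCaccca
HIST1H2BD: cccaaaGGCTCTTTTAAGAGCCacgca
HIST1H2AC: cccaaaGGCTCTTTTCAGAGCCcccct
HIST1H3H: cccaaaGGCTCTTTTCAGAGCCaccca
HIST1H4J: ataaaaGGCCCTTTTCAGGGCCaccct
HIST4H4: ccaaaaGGCCCTTTTCAGGGCCcccaa
H2AFX: cacaaaGGCCCTTTTAAGGGCCaccac

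The letters searched were GGCNCTTNTNANNGCC on the sense strand. They occurred in 81 of 83129 annotated protein-coding transcripts (0.0974%), which belong to 56 genes, 33 of them histone genes of the set. Of the 73 replication-dependent members, 33 held the stem-loop, HIST2H2BC, a transcribed pseudogene, included. Of the 40 others, 35 had a longest coding transcript whose length is a multiple of 3, as models of the coding sequence alone have, and a stem-loop beyond the end of a model cannot be found this way. Among the 10 variant genes, H2AFX alone held the letters. Its product marks sites of DNA breaks once it is phosphorylated. The annotated transcripts ran more than 100 bases past the stem-loop in 24 replication-dependent members, for example by 1729 bases in HIST2H2BE, 390 in HIST3H2A and 769 in HIST1H3H. In 9 others the annotated transcript ended within 100 bases of it, among them HIST1H4J with 6 bases and HIST1H2BD with 39. Of the replication-dependent genes, 56 lie on chromosome 6, 16 on chromosome 1 and 1, HIST4H4, on chromosome 12.

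The libraries held between 46698729 and 114222169 expected counts in total, and every parental library was deeper than every resistant library. Between 13 and 16 members were at 0 counts in a given library, and 3 counts corresponded to 0.0283 to 0.0581 counts per 1000000 (CPM, scaled by TMM). The epithelial and mesenchymal markers of the line were present, with KRT8 at 671 to 1601 CPM and VIM at 5917 to 10110 CPM. CDKN2A, known to be deleted in this line, and its neighbours CDKN2B and MTAP were at 0 counts in every library. PTPRC, PECAM1 and ALB, markers of blood, endothelial and liver cells, stayed at or under 0.16 CPM. COL1A1, the fibroblast marker looked at beside them, was higher, at 0.90 to 2.03 CPM. The summed level of 4 nuclear-retained RNAs (MALAT1, NEAT1, KCNQ1OT1 and MIAT) was 321 to 357 CPM in vehicle-treated parental cells. It was 544 to 557 CPM in replicates 1 and 2 of oxamate-treated parental cells and 1187 CPM in replicate 3. It was 534 to 583 CPM in replicates 1 and 2 of vehicle-treated resistant cells and 1112 CPM in replicate 3, and at least 1080 CPM in every oxamate-treated resistant library. These RNAs were thus higher in the comparisons in which the replication-dependent sum was higher, oxamate in parental cells and the lines after vehicle. For oxamate in resistant cells and for the lines after oxamate their groups overlapped, with log2 ratios of the means of 0.74 and 0.70, against 0.00275 and 0.00326 for the replication-dependent sum. Their part in the results was not tested. Without the replicate 3 libraries of oxamate-treated parental and vehicle-treated resistant cells, 11 replication-dependent genes were called for oxamate in parental cells and 5 for oxamate in resistant cells, in place of 14 and 3, and 17 and 22 between the lines after vehicle and after oxamate, in place of 21 and 22. The variants called were 6, 6, 9 and 8 in place of 8, 4, 9 and 9. Of 14682 genes tested in this fit, 3971 rose and 4269 fell for oxamate in parental cells, in place of 4124 and 4439 of 14582. For oxamate in resistant cells 1887 rose and 2416 fell, in place of 1314 and 1825. Between the lines 5459 rose and 5357 fell after vehicle, in place of 5602 and 5436. After oxamate 6030 rose and 5763 fell, in place of 5923 and 5785.

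Of the 83 members, 60 passed edgeR's filter on low counts, 50 of 73 replication-dependent genes and all 10 variants, among 14582 genes tested. The 10 members at 0 counts in all libraries were HIST1H2APS1, HIST1H2AA, HIST1H2BA, HIST1H2BH, HIST1H2BI, HIST1H3F, HIST1H3G, HIST1H4F, HIST1H4G and HIST1H4K, and the other 13 untested members had at most 19 counts in any library. The testis-type genes HIST1H1T, HIST1H2AA, HIST1H2BA and HIST3H3 were among the untested members. Variant genes were far more abundant in these libraries. Divided by the length of the longest coding transcript, the mean level of the variants over the 12 libraries had a median of 100 CPM per kb, from 18.1 for H2AFY2 to 452 for H2AFJ. The 49 replication-dependent genes with a length had a median of 0.793 CPM per kb, from 0.1003 for HIST1H4I to 39.4 for HIST1H2BK. After HIST1H2BK came HIST3H2A at 26.3, HIST1H1C at 13.9, HIST2H2AA3 at 12.1, HIST2H2AA4 at 11.8 and HIST1H4J at 11.6 CPM per kb. HIST1H2BK and HIST3H2A thus lay above H2AFY2, and all other replication-dependent genes with a length lay below every variant. Where the model holds only the coding sequence, as for HIST1H2BK and HIST1H1C, the level per kb is too high by the missing ends of the transcript.

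**Figure D1:**
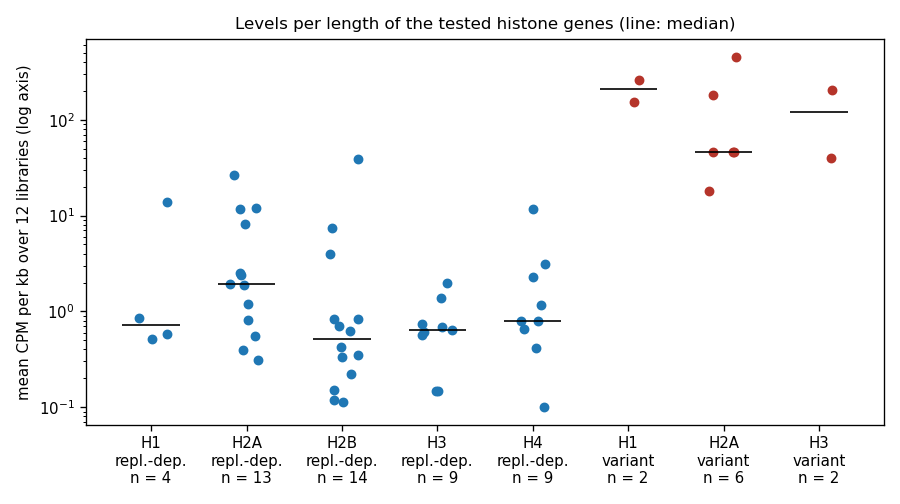
Mean level over the 12 libraries of each tested histone gene in CPM per kb of its longest coding transcript, on a log axis, by histone family, with replication-dependent genes in blue, variants in red and the median of each family as a line. Variants lie between 18.1 and 452 CPM per kb, and most replication-dependent genes lie near or below 1.

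A few genes made up most of the replication-dependent RNA. HIST3H2A, which codes for an H2A protein, gave 20.9% of the summed mean CPM of the 73 genes, and the 6 highest genes gave 61.7%. These 6 were HIST3H2A, HIST1H2BK, HIST1H1C, HIST2H2BE, HIST2H2AA3 and HIST2H2AA4. HIST2H2AA3 and HIST2H2AA4 are identical copies to which RSEM gave equal shares of the same reads, so their values are 1 measurement. The same holds for HIST2H4A and HIST2H4B and for HIST2H3A and HIST2H3C. Expected counts of HIST1H2BK, HIST2H2BE, HIST2H2AC, HIST1H2BO, H2AFY, H3F3A and H3F3B, among others, were not whole numbers in any library. This means that reads shared with other genes were divided between them.

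In vehicle-treated parental cells the 73 replication-dependent genes summed to 97.0, 95.2 and 92.2 CPM. Oxamate-treated parental cells had 114.3, 121.9 and 119 CPM, vehicle-treated resistant cells 120, 118 and 118 CPM, and oxamate-treated resistant cells 119, 119 and 118 CPM. Vehicle-treated parental cells were thus lower than all other libraries, and the totals of the other groups lay close together, but their parts differed. The 6 genes listed below for described polyadenylated transcripts summed to 41.5 to 45.2 CPM in oxamate-treated parental cells. In resistant cells they summed to 47.5 to 47.8 CPM after vehicle and 51.2 to 51.6 CPM after oxamate. The other 67 genes summed to 71.6 to 77.5 CPM in oxamate-treated parental cells. In resistant cells these 67 summed to 70.2 to 71.8 CPM after vehicle and 66.7 to 67.9 CPM after oxamate. The 10 variants summed to 2564, 2501 and 2427 CPM in vehicle-treated parental cells and to 2815 to 2915 CPM after oxamate. This higher sum was not shared by the whole class. By test 3 of the 10 rose and 5 fell (28.3% and 30.4% of all genes tested), with a median log2 fold change of -0.05. Those that rose were H1F0 by 0.57, H2AFJ by 0.41 and H3F3B by 0.11. The 10 variants summed to 2015 to 2086 CPM in vehicle-treated resistant cells and to 1960 to 1981 CPM in oxamate-treated resistant cells. The order of the groups therefore differed between the classes, since resistant cells had the lowest variant sums. The variant sum was 26.3 to 26.4 times the replication-dependent sum in vehicle-treated parental cells, 23.5 to 25.5 times after oxamate, and 16.5 to 17.7 times in resistant cells of both treatments. This ratio does not depend on how libraries are scaled. These sums are a description with no test, and the differences in CPM moved with the scaling, as given in the closing section.

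**Figure D2:**
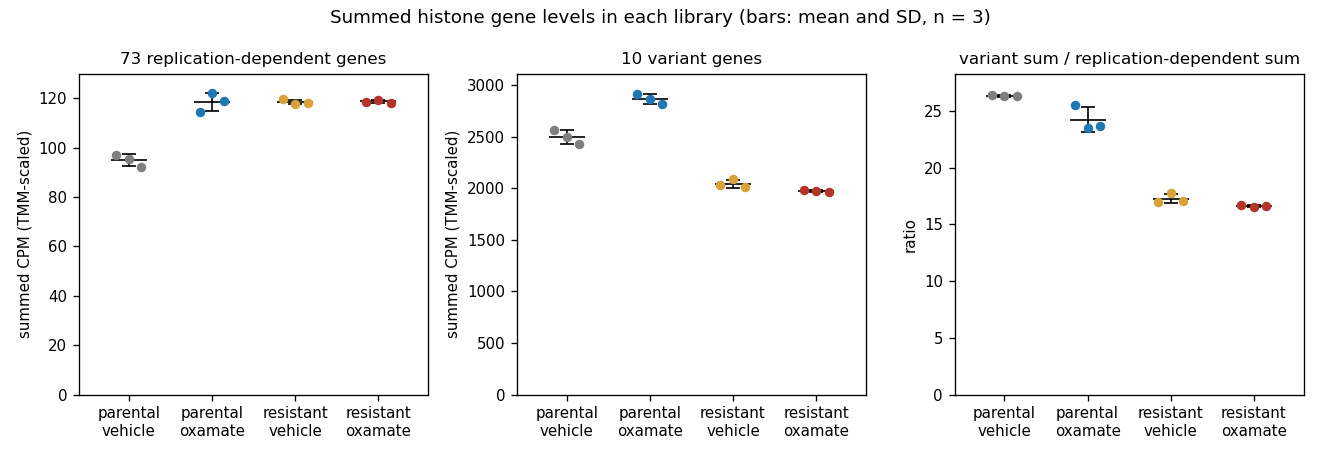
Summed TMM-scaled CPM of the 73 replication-dependent genes and of the 10 variant genes, and the ratio of the sums, in each of the 12 libraries (points), with the mean and SD of each group of 3. Vehicle-treated parental cells have the lowest replication-dependent sums, at 92.2 to 97.0 CPM, and the ratio is 16.5 to 17.7 in resistant cells and 23.5 to 26.4 in parental cells.

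Oxamate treatment of parental cells, which asks what LDHA inhibition does in sensitive cells, raised 11 of the 50 tested replication-dependent genes, the 6 most abundant ones among them. HIST1H2BK, an H2B gene for which polyadenylated transcripts are described, was at 10.4, 9.96 and 9.76 CPM after vehicle and at 16.0, 17.5 and 14.8 CPM after oxamate. HIST1H2BD, also an H2B gene of that kind, was at 4.73, 4.44 and 4.23 CPM after vehicle and at 6.49, 7.08 and 6.94 CPM after oxamate. HIST1H2AC, an H2A gene, went from 3.20, 3.65 and 3.31 CPM to 5.27, 4.87 and 5.29 CPM. For all 3 genes every oxamate-treated library lay above every vehicle-treated library. By edgeR's quasi-likelihood test, with p adjusted by Benjamini-Hochberg, the log2 fold changes were 0.68 ± 0.053 (SE, adjusted p = 3.21e-08) for HIST1H2BK, 0.61 ± 0.064 (adjusted p = 7.23e-07) for HIST1H2BD and 0.60 ± 0.087 (adjusted p = 2.26e-05) for HIST1H2AC. HIST2H2AA3 was at 6.01, 5.90 and 5.53 CPM after vehicle and at 7.74, 8.66 and 8.64 CPM after oxamate, a log2 fold change of 0.52. The linker histone gene HIST1H1C rose by 0.37, from 5.44 to 5.81 CPM after vehicle to 7.09 to 7.44 CPM after oxamate, again with no overlap. HIST3H2A rose by 0.19 and HIST2H2BE by 0.17, and in HIST2H2BE the call was lost in 7 of 24 alternatives.

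The genes that fell were H4 and H1 genes with low levels. HIST4H4 was at 0.556, 0.386 and 0.466 CPM after vehicle and at 0.215, 0.190 and 0.304 CPM after oxamate, and fell by 0.96 on the log2 scale (SE 0.267, edgeR adjusted p = 0.00588). HIST1H1B, a linker histone gene, fell by 0.79 with an adjusted p of 0.0341 by edgeR, and HIST1H4E fell by 0.68 with overlapping groups. Their calls were lost in 7 of 23 and 4 of 24 alternatives. HIST1H1B had 11 to 61 counts and HIST1H4E 17 to 58 counts per library. In all, 11 of the 50 tested replication-dependent genes rose (28.3% of all genes tested rose in this comparison) and 3 fell (30.4% of all genes tested fell). At an unadjusted p under 0.05 with a fold change over 1.5, the threshold of the study, 6 passed, 3 in each direction (9.88% of all genes tested passed). The median log2 fold change of the 50 genes was 0.09, and that of all genes tested was 0.00. As shares of the 50 genes tested, the 11 that rose and the 3 that fell lay below the shares of all genes. The 6 at the threshold of the study lay above it. Of the 73 replication-dependent genes, 15 had a mean over 1 CPM, whereas the lowest variant was at 35.9 CPM. The part of low counts in these shares, here and in the comparisons below, was not tested.

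A list of 6 genes with described polyadenylated transcripts was used, HIST1H1C, HIST1H2AC, HIST1H2BC, HIST1H2BD, HIST1H2BK and HIST2H2BE. The list may leave out others. HIST3H2A, which is off the list, has an annotated transcript that runs 390 bases past the stem-loop. Of the 6 listed genes, 5 rose in oxamate-treated parental cells, with a median of 0.49 (28.3% of all genes tested rose). The sum of the 6 was 29.99 to 30.86 CPM after vehicle and 41.5 to 45.2 CPM after oxamate. HIST1H2BC, with 17.04 to 53.16 counts per library, had a log2 fold change of -0.13 (SE 0.245). Of the other 44 tested members, 6 rose and 3 fell (30.4% of all genes tested fell), with a median of 0.07. HIST1H1C, HIST1H2BK and HIST2H2BE are also among the 6 most abundant replication-dependent genes. HIST2H2AA3 and HIST3H2A, abundant genes off the list, rose as well. The part of abundance in this contrast was not tested. The non-polyadenylated RNAs measured as a check, such as RN7SK and RN7SL1, summed to 151 to 164 CPM after vehicle and to 156 to 200 CPM after oxamate, and 1 of 11 tested, RN7SK, rose.

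Among variants, 3 of 10 rose and 5 of 10 fell in oxamate-treated parental cells, against 28.3% and 30.4% of all genes tested, and 0 passed the fold change of 1.5. The median log2 fold change of the 10 was -0.05. H1F0, which codes for the linker histone of differentiated and resting cells, was at 554, 547 and 516 CPM after vehicle and at 793, 803 and 804 CPM after oxamate. Its groups did not overlap, and its log2 fold change was 0.57 ± 0.026 (SE, edgeR adjusted p = 1.29e-10). H2AFJ, which codes for the variant H2A.J described in senescent cells, was at 298 to 336 CPM after vehicle and 409 to 433 CPM after oxamate, a rise of 0.41 (SE 0.0437, edgeR adjusted p = 9.10e-07). H3F3B, 1 of the genes for the replacement H3 protein, rose by 0.11, whereas H3F3A, which codes for the same protein, fell by 0.08 and lost its call in 6 of 24 alternatives. The other variants that fell did so by little, H2AFY2 by 0.17, H2AFX by 0.16, H2AFZ by 0.13 and H2AFY by 0.10. H2AFV and H1FX had log2 fold changes of -0.01 (SE 0.0303) and -0.02 (SE 0.0391). HIST4H4 and H2AFJ lie next to each other on chromosome 12 with start sites 3252 bases apart and opposite strands, and the former fell while the latter rose.

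**Figure D3:**
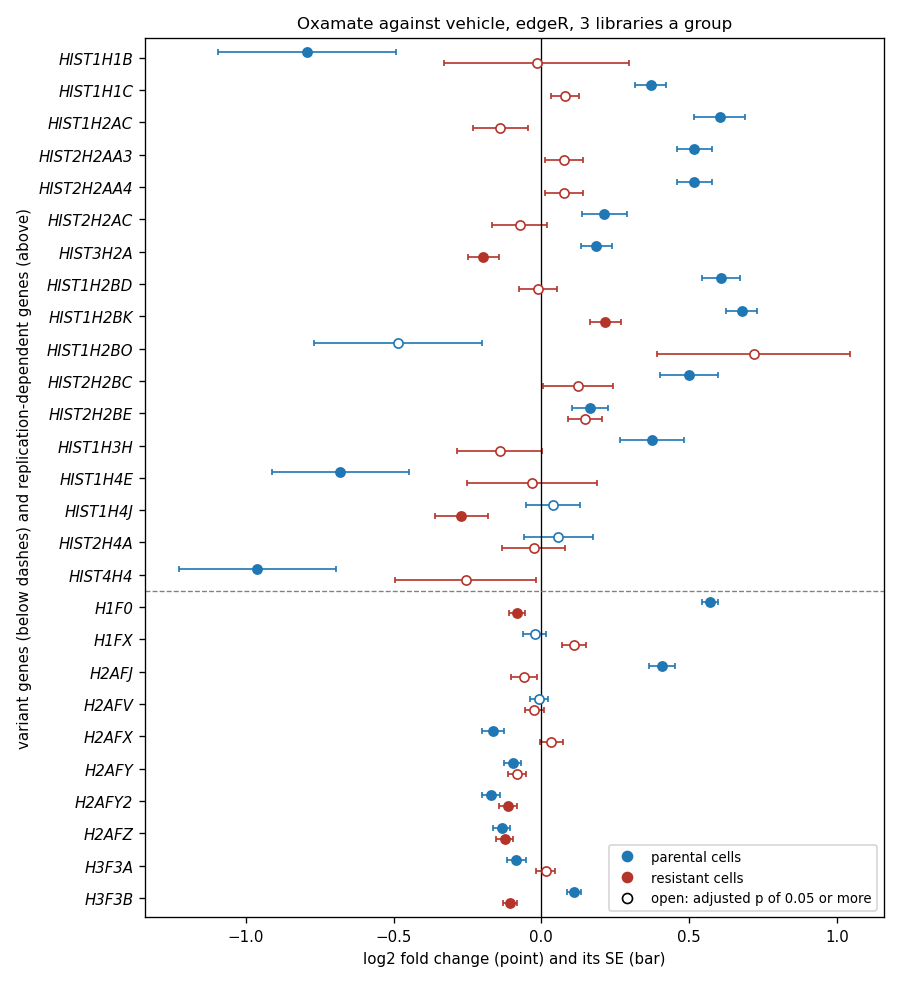
Log2 fold change of oxamate-treated against vehicle-treated cells with its SE for 17 named replication-dependent and 10 variant genes, in parental (blue) and resistant (red) cells, with open points where the edgeR adjusted p was 0.05 or more. In parental cells HIST1H2BK reaches 0.68 and H1F0 0.57, and in resistant cells most points lie close to 0.

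In oxamate-resistant cells the same treatment asks how resistant cells respond. There 3 of 50 replication-dependent genes and 4 of 10 variants were called, against 21.5% of all genes tested. HIST1H2BK rose again, from 15.8, 15.4 and 15.7 CPM after vehicle to 18.6, 17.8 and 18.2 CPM after oxamate, with no overlap (log2 fold change 0.22 ± 0.053, edgeR adjusted p = 0.00912). HIST3H2A fell by 0.20, from 26.2 to 28.1 CPM to 22.6 to 24.5 CPM, and HIST1H4J, an H4 gene, fell by 0.27, from 5.36 to 6.09 CPM to 4.45 to 4.92 CPM. These 3 were all the replication-dependent genes called, 1 of 50 higher (9.01% of all genes tested) and 2 of 50 lower (12.5% of all genes tested). At the threshold of the study 2 of 50 passed (2.50% of all genes tested), HIST1H2BO and HIST1H2AK, at 0.72 (SE 0.327) and -0.64 (SE 0.291) with overlapping groups. Without replicate 3 of oxamate-treated or replicate 1 of vehicle-treated resistant cells, 1 gene was called, HIST1H2BK. In these fits 701 and 674 of all genes tested rose and 1185 and 1176 fell, against 1314 and 1825 with all libraries. The HIST1H4J call had an adjusted p of 0.0411 by edgeR and was lost in 9 of 24 alternatives. Among variants, H3F3B, H2AFZ, H2AFY2 and H1F0 fell by 0.11, 0.12, 0.11 and 0.08, which were 4 of the 10 (12.5% of all genes tested). The call was lost in 6 of 24 alternatives for H2AFY2 and in 8 of 24 for H1F0. H1FX, a linker histone variant, was at 213 to 234 CPM after vehicle and 237 to 253 CPM after oxamate, with a log2 fold change of 0.11 and an edgeR adjusted p of 0.056. The median log2 fold change was -0.03 for replication-dependent genes, -0.07 for variants and 0.00 for all genes tested.

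The difference between the responses was tested as an interaction over all genes, and it was lower in resistant cells for 8 of 50 replication-dependent genes (21.4% of all genes tested) and higher for 1 (22.7% of all genes tested). The 8 were HIST1H2BD, HIST1H2BK, HIST1H2AC, HIST3H2A, HIST2H2AA3, HIST2H2AA4, HIST1H1C and HIST1H3H, all of which had risen in parental cells. HIST2H2AA3 and HIST2H2AA4 are 1 measurement, and HIST1H3H lost its interaction call in 9 of 23 alternatives. HIST1H2BD had a difference of -0.62 (SE 0.091, edgeR adjusted p = 5.19e-05), HIST1H2AC one of -0.74 (SE 0.127, edgeR adjusted p = 0.000207) and HIST1H2BK one of -0.46 (SE 0.0746, edgeR adjusted p = 0.000123). The gene with a higher response was HIST1H2BO, an H2B gene with 9.19 to 54.1 counts per library, whose difference of 1.21 had an SE of 0.433. At the threshold of the study 6 of 50 passed (8.48% of all genes tested). Of the 6 genes listed for described polyadenylated transcripts, 4 responded less in resistant cells. Among variants, H1F0 differed by -0.65 (SE 0.0372, edgeR adjusted p = 4.58e-09), H2AFJ by -0.47 and H3F3B by -0.22, and H2AFX differed by 0.20 in the other direction. Library size alone as scaling shifted the median of all genes by 0.10 and gave 6 variants higher and 3 lower in place of 1 and 3. With it, 5050 of all 14582 genes tested were higher and 1756 lower, in place of 3313 and 3125.

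Resistant and parental cells were compared after vehicle, which asks what differs between the lines without the drug. HIST1H1C, a linker histone gene, had the smallest p of the replication-dependent genes. It was at 5.81, 5.63 and 5.44 CPM in parental cells and at 11.3, 11.2 and 10.8 CPM in resistant cells, so that the groups were far apart. Its log2 fold change was 0.98 ± 0.049 (SE, edgeR adjusted p = 5.21e-11). HIST1H2BK was at 9.76 to 10.4 CPM in parental and 15.4 to 15.8 CPM in resistant cells, and HIST2H2BE at 6.36 to 6.77 and 9.71 to 10.4 CPM. They rose by 0.64 and 0.63, and HIST3H2A rose by 0.42. In the other direction, HIST1H3H, an H3 gene, was at 2.12, 2.27 and 1.88 CPM in parental and at 1.03, 1.14 and 1.04 CPM in resistant cells. It fell by 0.97 on the log2 scale (SE 0.123, edgeR adjusted p = 2.58e-06). HIST2H2AC fell by 0.71, from 3.67, 3.69 and 4.13 CPM to 2.32, 2.32 and 2.36 CPM, and the pseudogene HIST2H2BC fell by 0.70. HIST1H3E, which was not tested, had 0 counts in every parental library and 1 to 7 counts in resistant libraries.

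In all, 13 of 50 replication-dependent genes were higher in resistant cells (38.4% of all genes tested) and 8 of 50 were lower (37.3% of all genes tested), with a median of 0.06 against 0.03 for all genes. At the threshold of the study 15 passed (23.4% of all genes tested). The families are given by counts, with no test of a difference between them. Of 9 tested H4 genes, 5 rose, HIST1H4J by 0.70, HIST2H4A and HIST2H4B by 0.85, HIST1H4H by 0.68 and HIST1H4I by 1.42, the latter with 1 to 18 counts per library. The H4 sum was 8.66 to 9.15 CPM in parental and 12.97 to 13.56 CPM in resistant cells. HIST2H4A and HIST2H4B are 1 measurement. Of 9 tested H3 genes, 2 fell, HIST1H3H and HIST1H3D, and the H3 sum was 4.69 to 5.30 CPM in parental and 3.44 to 3.94 CPM in resistant cells, a difference that came mostly from HIST1H3H. Of the H2A genes 3 rose and 1 fell, and of the H2B genes 3 rose and 5 fell. The H1 sum was 6.86 to 7.30 CPM in parental and 12.4 to 12.7 CPM in resistant cells, most of it HIST1H1C. Of the 6 genes listed for described polyadenylated transcripts 5 rose, with a median of 0.54, and of the other 44 tested 8 rose and 8 fell. Scaling by library size alone shifted the median of all genes by 0.22 in this comparison. Then 17 replication-dependent genes were higher and 3 lower, against 8540 and 2769 of all 14582 genes tested. With upper-quartile factors 14 were higher and 4 lower, against 6561 and 4498 of all genes tested.

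Variants went mostly down in resistant cells, with 7 of 10 lower and 2 higher after vehicle, where 37.3% of all genes tested were lower and 38.4% higher. H3F3B was at 664, 657 and 653 CPM in parental cells and at 421, 426 and 422 CPM in resistant cells, with no overlap. It fell by 0.64 on the log2 scale (SE 0.0241, edgeR adjusted p = 1.82e-12) and was the only variant past a fold change of 1.5 here. H2AFJ fell by 0.52, from 298 to 336 CPM to 206 to 234 CPM. H2AFZ and H2AFV, which code for near-identical forms of the variant H2A.Z, fell by 0.42 and 0.40. H3F3A fell by 0.32, and H2AFY, which codes for macroH2A, and H2AFX each fell by 0.24. H2AFY2, which codes for the other macroH2A protein, rose by 0.15, from 34.8 to 36.3 CPM to 38.9 to 40.7 CPM, and H1F0 rose by 0.08. The median of the variants was -0.28. With library size alone 3 variants were higher and 5 lower, against 8540 and 2769 of all 14582 genes tested. H3F3B, H2AFJ, H2AFZ, H2AFV and H3F3A still fell.

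**Figure D4:**
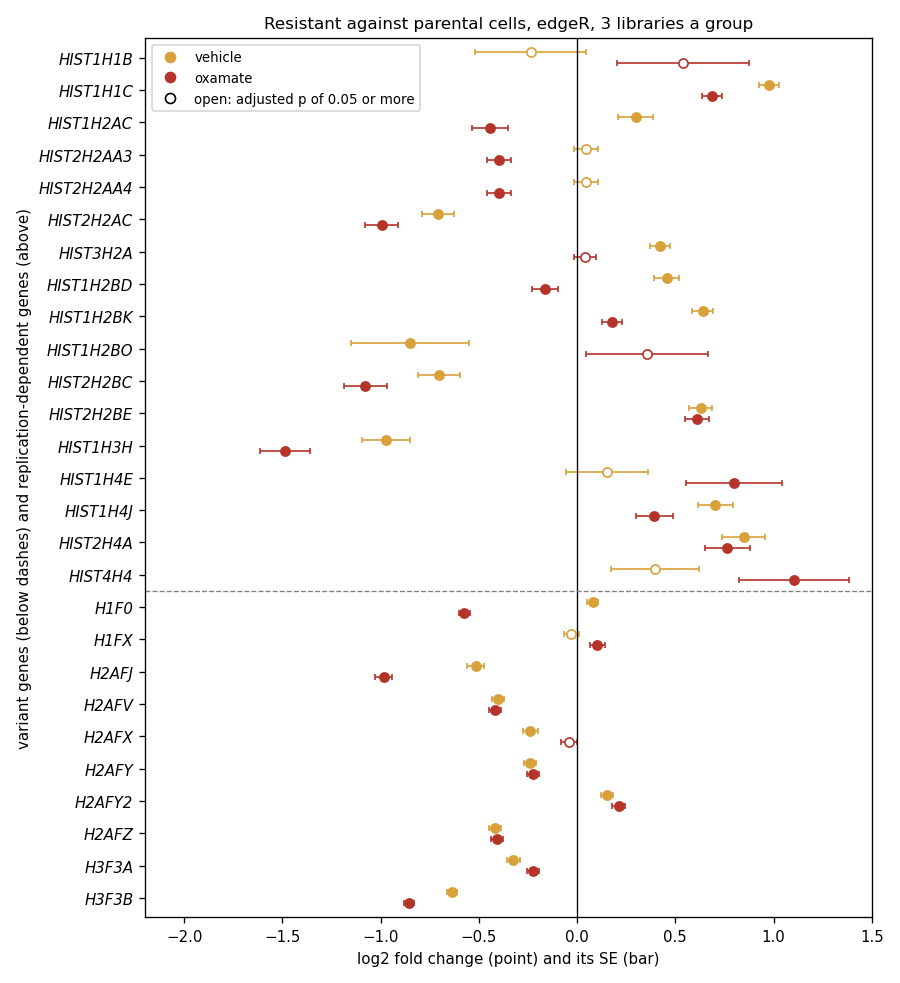
Log2 fold change of resistant against parental cells with its SE for 17 named replication-dependent and 10 variant genes, after vehicle (yellow) and after oxamate (red), with open points where the edgeR adjusted p was 0.05 or more. HIST1H1C lies at 0.98 and 0.69 and HIST2H2BE at 0.63 and 0.61, whereas HIST1H3H lies at -0.97 and -1.49 and H3F3B at -0.64 and -0.85.

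After oxamate, the comparison of the lines asks what separates resistant from sensitive cells under the drug. HIST1H3H was at 2.72, 2.36 and 3.07 CPM in parental and at 0.957, 1.01 and 0.957 CPM in resistant cells, and fell by 1.49 on the log2 scale (SE 0.127, edgeR adjusted p = 1.66e-08). HIST2H2AC fell by 1.00 and HIST2H2BC by 1.08, and HIST1H2AC and HIST2H2AA3, which were not lower after vehicle, fell by 0.44 and 0.40. HIST1H1C rose by 0.69, from 7.09 to 7.44 CPM to 11.4 to 12.1 CPM, and HIST2H2BE rose by 0.61. Of the 50 genes, 12 were higher (40.6% of all genes tested) and 10 lower (39.7% of all genes tested), and the median was -0.12 against 0.01 for all genes. At the threshold of the study 15 passed (34.3% of all genes tested). With library size alone, which moved the median of all genes by 0.32, 18 were higher and 5 lower, against 9133 and 2819 of all 14582 genes tested.

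H4 genes were again higher, 7 of 9 tested, with HIST4H4 at 0.190 to 0.304 CPM in parental and 0.503 to 0.536 CPM in resistant cells, a rise of 1.10 (SE 0.281, edgeR adjusted p = 0.00191). HIST2H4A and HIST2H4B rose by 0.76, HIST1H4E by 0.80 and HIST1H4J by 0.39. Among variants 7 of 10 were lower (39.7% of all genes tested) and 2 were higher (40.6%). H2AFJ was at 409 to 433 CPM in parental and 209 to 214 CPM in resistant cells, and fell by 0.98 (SE 0.0446, edgeR adjusted p = 6.37e-12). H3F3B fell by 0.85 and H1F0 by 0.57, the latter from 793 to 804 CPM to 532 to 541 CPM. H2AFZ, H2AFV, H2AFY and H3F3A fell by 0.41, 0.42, 0.22 and 0.22, but H2AFY and H3F3A were higher with library size alone. That scaling gave 5 variants higher and 5 lower, against 9133 and 2819 of all 14582 genes tested. H2AFY2 rose by 0.21 and H1FX by 0.10.

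**Figure D5:**
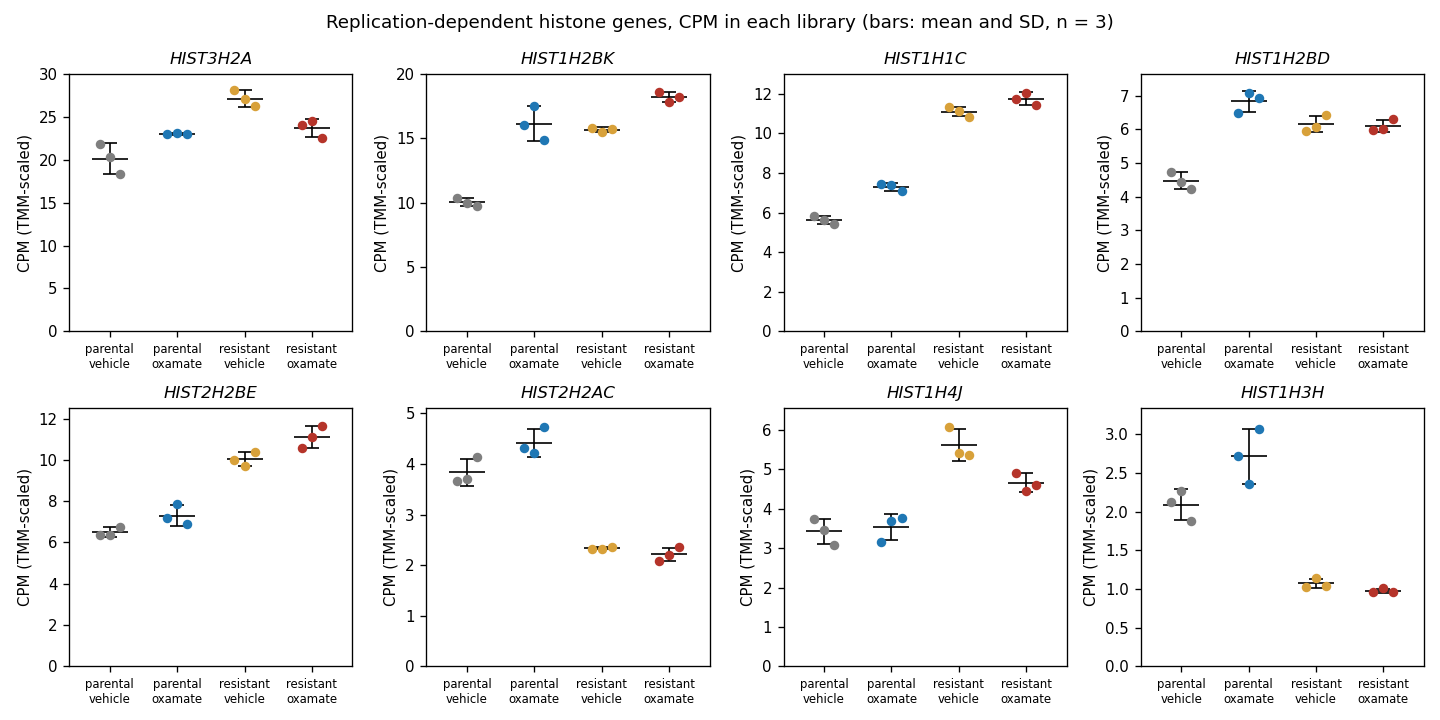
TMM-scaled CPM of 8 replication-dependent genes in each of the 12 libraries (points), with the mean and SD of each group of 3. HIST1H1C and HIST2H2BE are higher in every resistant library than in any parental library, and HIST2H2AC and HIST1H3H are lower.

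Many replication-dependent genes are transcribed away from each other from a short shared promoter. Annotated GENCODE starts on opposite strands lay within 1000 bases of each other in 13 pairs of members, and both genes were tested in 11. In models of the coding sequence alone, this start is that of the coding sequence. HIST1H2BO was counted with HIST1H2AM and again with HIST1H3J. After vehicle, 2 of the 11 pairs were called in opposite directions between the lines and 0 in the same direction. These were HIST2H2BE, which rose, with HIST2H2AC, which fell, and HIST3H2A, which rose, with HIST3H2BB, which fell by 0.46 with an edgeR adjusted p of 0.0432. After oxamate 1 pair, HIST2H2BE with HIST2H2AC, was called in opposite directions and 1, HIST2H2BC with HIST2H2AA4, in the same. In oxamate-treated parental cells 2 pairs were called in the same direction, HIST2H2BE with HIST2H2AC and HIST2H2BC with HIST2H2AA4, and the other 9 had at most 1 called gene.

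The annotated starts of HIST2H2BE and HIST2H2AC are 323 bases apart on chromosome 1 in GENCODE, at 149886652 on the minus strand and 149886975 on the plus strand. The GENCODE model of HIST2H2AC appears to hold only the coding sequence, and its RefSeq start lies upstream, just after 149886917. The shared interval is shown because the genes on either side of it moved in opposite directions, and the upstream interval of HIST1H2BK because that gene rose in 4 of 4 comparisons. Both are the 250 bases before the RefSeq start, from the promoter sequences of GRCh38.p14, chr1:149886668-149886917 on the plus strand for HIST2H2AC (named H2AC20 there) and chr6:27146859-27147108 on the minus strand for HIST1H2BK (H2BC12). Capitals mark ATTTGCAT (the octamer), TATAAA and CCAAT on either strand.
HIST2H2AC: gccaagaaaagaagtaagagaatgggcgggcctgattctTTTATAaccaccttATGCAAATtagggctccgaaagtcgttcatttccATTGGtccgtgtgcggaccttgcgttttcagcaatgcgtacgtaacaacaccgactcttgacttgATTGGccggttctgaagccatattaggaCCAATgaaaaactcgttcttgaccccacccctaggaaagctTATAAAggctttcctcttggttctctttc
HIST1H2BK: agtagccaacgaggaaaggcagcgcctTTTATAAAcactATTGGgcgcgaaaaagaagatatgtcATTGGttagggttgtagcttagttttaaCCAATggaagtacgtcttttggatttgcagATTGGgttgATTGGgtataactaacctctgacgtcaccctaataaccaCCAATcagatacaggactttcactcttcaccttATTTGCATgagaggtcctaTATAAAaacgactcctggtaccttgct

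The HIST2H2AC interval held the octamer 1 time, TATAAA 2 times and CCAAT 3 times. The TATAAA match at position 222 faces HIST2H2AC, and the one at position 40 is on the strand of HIST2H2BE. The HIST1H2BK interval held the octamer 1 time, TATAAA 3 times, of which 2 overlap on opposite strands, and CCAAT 6 times. Promoters were matched for 74 of 83 members through GENCODE's Entrez gene identifiers. In windows of 250 bases before to 50 after the start, the octamer was found in 26 of 65 replication-dependent promoters (40.0%), 1 of 9 variant promoters (11.1%) and 1.80% of 27305 promoters in all. By family it was found in 77.8% of 18 H2B and 68.8% of 16 H2A promoters and in 0 of 13 H4 promoters. TATAAA was found in 66.2% of replication-dependent and 12.0% of all promoters, and CCAAT in 84.6% and 35.7%. A match is a run of letters, and binding was not measured here.

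Genes that transcribe, process and carry histones were listed to give the setting, and their counts stand against the shares of all genes tested. These shares were 28.3% higher and 30.4% lower for oxamate in parental cells, 9.01% and 12.5% for oxamate in resistant cells, 38.4% and 37.3% between the lines after vehicle, 40.6% and 39.7% after oxamate, and 22.7% and 21.4% for the interaction. S phase genes were lower in resistant cells in 18 of 18 cases after vehicle and after oxamate, with medians of -0.67 and -0.68, RRM2 at -1.09 and -1.44 being the one with the smallest p. In oxamate-treated parental cells 10 of 18 rose and 4 fell, with RRM2 at 0.31 and PCNA at -0.27. In oxamate-treated resistant cells 7 of 18 rose, MCM3 by 0.19. The response was higher in resistant cells for 5 of 18, MCM5 by 0.28, and lower for 3, RRM2 by -0.36. The summed replication-dependent RNA was thus higher in resistant cells after vehicle, in the same libraries in which S phase genes were lower, and the share of cells in S phase was not measured here.

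Of 18 genes for histone transcription and mRNA processing, 14 fell (37.3% of all genes tested) and 3 rose (38.4%) in resistant cells after vehicle. SLBP, which binds the stem-loop, was at 86.6 to 87.6 CPM in parental and 60.2 to 63.2 CPM in resistant cells and fell by 0.49, and ERI1, an exonuclease that trims the stem-loop end, fell by 1.02. NPAT, the coactivator of histone genes at histone locus bodies, rose by 0.34, and ZNF473, a zinc finger protein of the processing complex, rose by 0.90. After oxamate 7 rose and 9 fell, ZNF473 by 1.46 and NPAT by 1.17 upward and ERI1 by 0.88 and SLBP by 0.62 downward. Oxamate in parental cells lowered 10 and raised 2, with NPAT at 14.1 to 16.8 CPM after vehicle and 9.32 to 10.5 CPM after oxamate, a fall of 0.63, and CPSF1 rising by 0.16. In resistant cells oxamate raised 2, SRRT by 0.36 and NPAT by 0.20, and lowered 3, CPSF2 by 0.13. The NPAT response differed between the lines by 0.83 (SE 0.0832, edgeR adjusted p = 1.26e-06), and in all 11 of 18 responded higher in resistant cells and 3 lower, CPSF1 by -0.15.

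Of 23 histone chaperone and importer genes, 6 rose (38.4% of all genes tested) and 14 fell (37.3%) in resistant cells after vehicle, UBN1, a subunit of the HIRA complex that deposits replacement H3, by 0.42 upward and RBBP4 by 0.45 downward. After oxamate 7 rose and 12 fell, UBN1 by 0.78 upward and DAXX, a second chaperone of replacement H3, by 0.66 downward. Oxamate raised 6 and lowered 11 in parental cells, CABIN1 by 0.33 upward and UBN1 by 0.42 downward, and raised 3 and lowered 1 in resistant cells, ASF1B by 0.13 upward and YEATS4 by 0.12 downward. HIRA fell by 0.40 in oxamate-treated parental cells and was higher in resistant cells by 0.41 after vehicle and 0.80 after oxamate. The response differed in 17 of 23, with SRCAP, which exchanges H2A.Z into chromatin, at 0.82 and DAXX at -0.20. Of 11 tested non-polyadenylated RNAs, 2 rose in resistant cells after vehicle, TERC by 0.78, and after oxamate 2 rose, TERC by 1.19, and 4 fell, RN7SL2 by 0.29.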

How the data were processed

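The authors enriched mRNA on oligo(dT) beads, mapped reads with Bowtie2 2.1.0 and deposited expected counts per gene symbol from RSEM 1.2.15, without normalization (versions and hg38 from the submitters' processing notes). The study's methods also describe STAR mapping with featureCounts, whose counts were not used here. Whether strand was used is not given in the sources used here. The values were rounded to whole numbers. Testing used R 4.3.3 and edgeR 4.0.16, with filterByExpr, TMM scaling, glmQLFit and glmQLFTest over all 12 libraries and the means of 4 groups. Genes with a Benjamini-Hochberg adjusted p under 0.05 over 14582 genes were called, and the study's threshold (p under 0.05, fold over 1.5) was counted beside it. The procedure was tested on simulated data. Alternatives used limma 3.58.1, DESeq2 1.42.0, other scalings and filters, unrounded counts, a replicate block and single libraries left out. The fit without both libraries with high nuclear-retained RNA was chosen after seeing the data.

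The members and lists were chosen with earlier results of these data known. By rule, all variants were named, the 6 most abundant replication-dependent genes, up to 3 called genes per comparison and direction with the smallest p, members at 0 counts, and from each other list the called gene with the smallest p per direction. HIST1H3D, HIST1H3E, HIST1H4H, HIST1H4I, HIST2H4B, HIST3H2BB, HIST1H2AK, SLBP and HIRA were named after their values were seen. Positions, lengths and transcripts came from GENCODE release 29. A floor of 3 counts covers counting error only.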

Additional observations from a re-analysis of the deposited data

Results flagged for a closer look

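For 4 of the named genes the response to oxamate differed between the lines by edgeR's interaction test, with a size over 1.5-fold. The response in resistant cells minus that in parental cells was -0.65 on the log2 scale for H1F0 (SE 0.0372, edgeR adjusted p = 4.58e-09), which rose by 0.57 in parental cells and fell by 0.08 in resistant cells. It was -0.62 for HIST1H2BD, with responses of 0.61 and -0.01, and -0.74 for HIST1H2AC, with responses of 0.60 and -0.14. These 3 kept the interaction call in all 23 alternatives tried. The fall of H1F0 within resistant cells lost its call in 8 of 24. HIST1H2BO had a difference of 1.21 (SE 0.433, edgeR adjusted p = 0.0335), from responses of -0.49 and 0.72 of which neither was called alone, and lost its call in 6 of 22 alternatives, with adjusted p from 0.00559 to 0.0959. Groups of 3 were too small for the check on single outlying samples.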

How the results depend on the processing

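Of the recomputed counts of called genes, 236 stayed within 1.5 times the value given, 20 were lower and 2 higher. Under the study's threshold 6 replication-dependent genes were called in oxamate-treated parental cells, and the variants called were 0 for oxamate in parental cells, 0 for oxamate in resistant cells, 1 and 2 between the lines after vehicle and oxamate, and 1 for the interaction. An adjusted p under 0.05 with a fold over 1.5 gave the same 6, 0, 0, 1, 2 and 1, and 0 replication-dependent genes for oxamate in resistant cells and 3 for the interaction. Library size alone gave 9 variants for the interaction, where 5050 of all 14582 genes tested were higher and 1756 lower. Leaving out both libraries with high nuclear-retained RNA gave 5 replication-dependent genes for oxamate in resistant cells, where 1887 of all 14682 genes tested rose and 2416 fell. Leaving out 1 library at a time gave 1 to 4 replication-dependent genes and 2 to 6 variants for oxamate in resistant cells, against 3 and 4. The lowest variant count, 2, came without replicate 1 or 3 of oxamate-treated or replicate 1 or 2 of vehicle-treated resistant cells. In these fits 666 to 815 of all genes tested rose and 1129 to 1321 fell, against 1314 and 1825 with all libraries. The causes were not tested.

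With library size alone, which moved the median of all genes between the lines by 0.22 after vehicle and 0.32 after oxamate, H2AFY (0.10), H3F3A (0.10) and HIST1H2BD (0.16) turned higher in resistant cells after oxamate. The log2 ratio of the replication-dependent sums was 0.321, 0.00275, 0.322 and 0.00326 for oxamate in parental cells, oxamate in resistant cells, and the lines after vehicle and after oxamate. With library size alone it was 0.246, 0.0332, 0.541 and 0.328, and with upper-quartile factors 0.0262, 0.398 and 0.0897 for the last 3. The log2 ratio of the variant sums was 0.199, -0.0536, -0.289 and -0.541. It was 0.123, -0.0229, -0.0694 and -0.216 with library size alone, and -0.212 and -0.454 between the lines with upper-quartile factors.

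Replicate numbers were not treated as pairs in the main fit. Deviations from the group means correlated above 0.1 in 3 of 18 pairs with the same number, against 2 of 36 with different numbers. The largest correlation, 0.245, joined replicate 3 of oxamate-treated parental and of vehicle-treated resistant cells, the libraries left out above for high nuclear-retained RNA. In 17 of 36 cases a library correlated best with its own number among the 3 of another group, more than equal odds would give. Whether replicates with the same number were handled together was not tested. A block for the replicate number gave 14, 3, 20, 22 and 11 replication-dependent genes and 8, 6, 9, 9 and 5 variants, in the order of the comparisons above with the interaction last. At these depths 13 members with counts did not pass the filter and were not tested.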
